A study of Sus scrofa with 2 samples.

Results

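The distal convoluted tubule is the nephron segment between the thick ascending limb of the loop of Henle and the connecting tubule. Its cells take up sodium chloride through the thiazide-sensitive cotransporter NCC, the product of SLC12A3, and a kinase cascade of WNK kinases and the kinase SPAK sets the activity of that transporter. The segment is also known for the final adjustment of magnesium in the urine, and its late part shares calcium and sodium transport with the connecting tubule. Nuclei of this segment were described here in pig renal cortex, with 1 single-nucleus RNA sequencing library from an unperfused and 1 from a perfused kidney cortex.

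Pig kidneys from a slaughterhouse were flushed, kept at 4 °C for about 2 h and then perfused ex vivo at 100 mmHg and 37 °C with a balanced salt solution that held neither albumin nor red blood cells. The unperfused library came from cortex that had not been perfused and the perfused one from cortex sampled at 120 min, so that pressure, temperature and time differed together between the libraries. Whether 1 animal gave both pieces is not stated in the labels or the methods, and age, breed and sex of the pigs are not given. With 1 library per condition no difference between the conditions could be tested, nuclei are not replicates, and every interval below is an exact 95% interval that covers counting error only.

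Nuclei were chosen by their own transcripts among barcodes with 500 to 6000 detected genes. A member had at least 5 transcripts of SLC12A3 and HS6ST3 together per 10000 UMIs (unique molecular identifiers, so that a UMI stands for 1 captured RNA molecule), at least 2 UMIs of SLC12A3, and low levels of 4 genes of other tubule segments. These were SLC12A1 of the thick limb (under 20 per 10000 UMIs), SLC8A1 of the connecting tubule (under 50), and LRP2 and CUBN of the proximal tubule (under 30 together). The rule found 450 nuclei among 12955, of which 295 came from the 7035 unperfused and 155 from the 5920 perfused barcodes. This was 4.19% (3.74 to 4.69) of the unperfused and 2.62% (2.23 to 3.06) of the perfused nuclei. For the neighbouring segments, 841 unperfused and 954 perfused nuclei met the thick limb rule, and 243 (3.45%) and 154 (2.60%) met the connecting tubule rule. SLC12A3, which chose the nuclei, was itself lower after perfusion, and its part in the lower share was not tested. A set chosen without SLC12A3 and HS6ST3, described below, was 3.43% of unperfused and 1.99% of perfused nuclei. RNF180, among the genes that chose that set, was also lower in perfused members, and its part in that share was likewise not tested.

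The libraries held 34415254 (unperfused) and 35525592 UMIs (perfused) in all barcodes. Members held 1811030 and 1276185 UMIs, with medians of 5820 and 7846 UMIs and 2693 and 3104 genes per nucleus, so the perfused members were the more deeply sequenced. A member's mitochondrially encoded transcripts were a median of 0.0519% and 0.0642% of its UMIs, and no member exceeded 7%. The libraries shared 14 barcodes, of which 1 belonged to a member, and no barcode was a member in both. Levels below are in CPM, the counts of a gene per 1000000 UMIs summed over a set of nuclei in a library.

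The limits of the rule left few nuclei close to them on most sides. With 1 UMI of SLC12A3 accepted in place of 2, another 49 unperfused and 29 perfused nuclei would have entered, while 35 and 13 members held exactly 2. The thick limb limit alone kept out 11 and 9 nuclei, the proximal limit 13 and 12, and the SLC8A1 limit 42 and 15. Most members were far inside the last limit, since 68.1% of the unperfused and 69.0% of the perfused members had no UMI of SLC8A1.

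The other marker genes fixed for the segment were enriched in these nuclei too. SALL3 (ENSSSCG00000004858), a transcription factor, was at 141 CPM in unperfused and 121 CPM in perfused members, against 4.95 and 2.84 CPM in all other nuclei. ETV4 (ENSSSCG00000017379), an ETS family transcription factor, was at 77.9 and 92.5 CPM against 4.20 and 2.84 CPM. RNF180 (ENSSSCG00000016941), a ubiquitin ligase, was at 535 and 351 CPM against 38.3 and 31.6 CPM. RNF180 was also found in the thick limb, at 157 and 101 CPM. All 3 markers were therefore higher in the members of both libraries, so these data did not go against the label of the segment. With each nucleus thinned to 1000 UMIs, RNF180 was found in 33.2% and 29.7% of members and in 0.658% and 0.403% of proximal tubule nuclei, whose median depths were 5596 and 6982.5 UMIs. Without thinning, these shares were 75.9% and 77.4% of members and 3.64% and 3.48% of proximal nuclei.

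Among the 20 named genes with the highest ratio of members over all other nuclei, HERPUD1, TSC22D1 and RYR2 had the highest levels of those described here. HERPUD1 (ENSSSCG00000040663), a protein of endoplasmic reticulum degradation, was at 2298 and 3308 CPM, against 161 and 133 CPM in all other nuclei. TSC22D1, a leucine zipper transcription regulator, was at 1982 and 2120 CPM, against 181 and 155 CPM. RYR2 (ENSSSCG00000010142), the calcium release channel known from heart muscle, was at 2756 and 2956 CPM, against 370 and 452 CPM. PROX1 (ENSSSCG00000015584), a homeobox factor known from lymphatic endothelium, was at 186 and 182 CPM, against 18.4 and 20.6 CPM. The group also held the inwardly rectifying potassium channel KCNJ10, at 127 and 129 CPM against 15.7 and 16.4 CPM, the calcium channel subunit CACNB4, the nicotinic receptor subunit CHRNA4, the scaffold DLG2, the kinase PAK5 and the notch ligand DNER. HERPUD1 is the next protein-coding gene to SLC12A3 on the pig chromosome in the RefSeq annotation of assembly Sscrofa11.1, and whether transcripts that run past the end of SLC12A3 were counted in HERPUD1 was not tested. One gene without a symbol, ENSSSCG00000048856, was at 110306 CPM in unperfused and 94975 CPM in perfused members, the highest level of any feature.

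**Figure D1:**
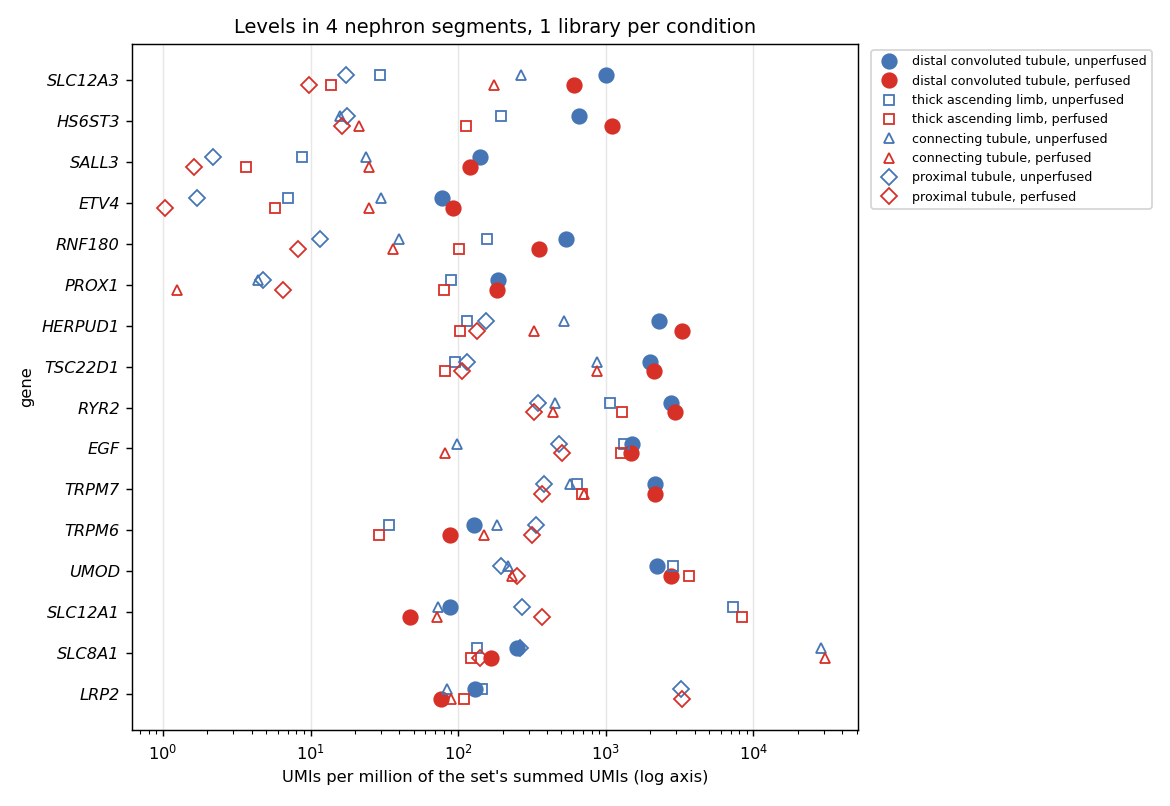
Levels of 16 genes (rows) in CPM, on a log axis, for distal convoluted tubule nuclei (filled circles) and 3 other tubule segments (open symbols), in unperfused (blue) and perfused (red) cortex. SLC12A3 is at 1001 and 614 CPM in the members and under 30 CPM in thick limb and proximal tubule nuclei, while SLC12A1, SLC8A1 and LRP2, which the rule limits, are highest elsewhere.

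Against thick limb nuclei (841 unperfused, 954 perfused), the genes with the highest ratio included SLC12A3, which chose the members, and EMX1, HERPUD1 and TSC22D1. EMX1, a homeobox gene, was at 173 and 208 CPM in members and at 8.04 and 7.17 CPM in the thick limb. TMEM52B, a membrane protein, was at 546 and 379 CPM against 38.0 and 19.0 CPM. Also among the 10 genes highest over the thick limb were TOX3, CACNB2, PIP5K1B and SAMD5. In the other direction, CLDN16, a claudin that lets magnesium and calcium pass between cells of the thick limb, had 1 and 2 UMIs in the members, at 0.552 and 1.57 CPM, against 292 and 297 CPM. CASR, the calcium-sensing receptor, was at 5.52 and 0.784 CPM against 269 and 286 CPM. The transcription factor SIM2, the cadherin CDH4, the kinase NRK and TMEM207 were among the 10 genes lowest relative to the thick limb as well. UMOD, the main protein of normal urine, did not separate these segments, at 2207 and 2770 CPM in members and 2852 and 3633 CPM in the thick limb. At 1000 UMIs per nucleus UMOD was found in 81.2% and 81.3% of members and in 12.7% and 13.3% of proximal nuclei.

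Against connecting tubule nuclei (243 and 154), PROX1 and EGF were among the 10 genes highest in members, as was HS6ST3, which helped to choose them. PROX1 was at 4.39 and 1.25 CPM in connecting tubule nuclei and at 186 and 182 CPM in members. EGF (ENSSSCG00000009134), the growth factor that stimulates magnesium uptake in this segment, was at 1509 and 1490 CPM in members, against 98.4 and 81.3 CPM. The cell adhesion gene CADM2, the synaptic scaffold gene DLGAP1 and the phosphatase gene PTPRT followed the same order. On the other side, the subunits of the epithelial sodium channel SCNN1B and SCNN1G were at 12.1 and 11.8 CPM and at 23.7 and 25.9 CPM in members, against 229 and 375 CPM and 429 and 627 CPM in connecting tubule nuclei. CALB1, the calcium-binding protein calbindin, was at 26.0 and 28.2 CPM against 591 and 369 CPM, and the proton pump gene ATP12A, ENPP3, ANGPT1 and BMPR1B were lower in members as well. All 42 unperfused and all 15 perfused SLC12A3 nuclei that the SLC8A1 limit kept out stood in the connecting tubule set, so the contrast with that set includes them.

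The nuclei kept out by SLC8A1 were next set beside the members, since they also carried SLC12A3. SLC8A1, a sodium-calcium exchanger, was not spread evenly over SLC12A3 nuclei. In the unperfused library 201 nuclei had none, 73 had more than 0 but under 10 per 10000 UMIs, 14 had 10 to 25, 7 had 25 to 50, 5 had 50 to 100 and 37 had 100 or more. The same groups of perfused nuclei numbered 107, 41, 6, 1, 1 and 14. Both libraries thus had many nuclei at the low end, few in the middle and a second set at 100 or more.

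In the nuclei at 100 or more SLC12A3 was at 889 (unperfused) and 843 CPM (perfused), against 1100 and 624 CPM in nuclei without SLC8A1. The rule asks for at least 2 UMIs of SLC12A3 and for a minimum of SLC12A3 and HS6ST3 together in all of these nuclei, so the levels of both genes are a description. The nuclei at 100 or more had few or no transcripts of PROX1 and HS6ST3, and lower levels of EGF and RYR2 than nuclei without SLC8A1. PROX1 was at 7.73 CPM (2 UMIs) before perfusion and had no UMI after it, for which a limit of 3 UMIs is 24.8 CPM. HS6ST3 was at 19.3 CPM (5 UMIs) and likewise had no perfused UMI. EGF was at 182 and 174 CPM against 1642 and 1690 CPM in nuclei without SLC8A1, and RYR2 was at 657 and 430 CPM against 3078 and 3333 CPM. Calcium genes went in both directions. CALB1 (ENSSSCG00000006125) was at 1504 and 1363 CPM against 16.2 and 9.21 CPM. VDR (ENSSSCG00000020864), the vitamin D receptor, was at 1535 and 1405 CPM against 199 and 213 CPM. TRPV5 (ENSSSCG00000016469), the apical calcium channel, was at 193 and 41.3 CPM, and none of its UMIs were found in the nuclei without SLC8A1, for which a limit of 3 UMIs is 2.55 and 3.45 CPM. The calcium pump gene ATP2B4 was at 99.9 and 79.9 CPM in members and at 199 and 280 CPM in all nuclei outside the SLC8A1 limit. Its relative ATP2B1 was at 217 and 221 CPM in members and 122 and 184 CPM outside, for a log2 ratio of outside over members of −0.83 (−1.37 to −0.33) in unperfused and −0.26 (−0.91 to 0.33) in perfused nuclei. PTH1R, the parathyroid hormone receptor, was at 100.5 and 94.8 CPM in members and at 10.5 and 14.8 CPM outside, from 3 and 2 UMIs. RYR2 was lower outside as well.

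Magnesium genes also differed between these nuclei. TRPM6 (ENSSSCG00000005269), the apical magnesium channel, was at 128 and 88.5 CPM in members and at 356 and 435 CPM in all nuclei outside the SLC8A1 limit, for a log2 ratio of 1.48 (1.13 to 1.82) and 2.30 (1.82 to 2.76). CNNM2, a basolateral magnesium protein, was at 1298 and 1213 CPM in members and 1902 and 2833 CPM outside. TRPM7, a relative of TRPM6, was at 2140 and 2146 CPM in members and 653 and 760 CPM outside, opposite in direction to TRPM6. WNK1 was at 716 and 617 CPM in members and 1340 and 1099 CPM outside, whereas KLHL3, the adaptor that marks WNK kinases for degradation, was at 792 and 764 CPM in members and 893 and 775 CPM outside. Median depths of the nuclei outside the limit were 6664.5 and 7950 UMIs, close to those of the members, and Scrublet called 2 of the 42 and 2 of the 15 doublets. Among groups with less SLC8A1 (none, more than 0 but under 10, and 10 to 25), EGF went from 1642 to 1334 to 941 CPM in unperfused and from 1690 to 1102 to 888 CPM in perfused nuclei. RYR2 went from 3078 to 2341 to 1417 CPM and from 3333 to 2215 to 1886 CPM. The order did not go on in the next group, since the 7 unperfused nuclei at 25 to 50 held EGF at 1155 and RYR2 at 1732 CPM. Up to the group at 10 to 25, HERPUD1 fell too, at 2424, 2205 and 1512 CPM and at 3581, 2904 and 1738 CPM. SLC12A3, which chose the nuclei, was at 1100, 833 and 666 CPM and at 624, 595 and 573 CPM. VDR did not keep 1 order, at 199, 212 and 561 CPM in unperfused and 213, 186 and 74.0 CPM in perfused nuclei. The groups at 10 to 25 held only 14 and 6 nuclei. At 50 to 100, the 5 unperfused nuclei had 15 UMIs of SCNN1G and none of TRPM6, and the 1 perfused nucleus had none of SCNN1G, 3 of TRPM6 and 40 of RYR2 (2760 CPM). SLC8A1 was the gene that set this order, and no gene was tested against it.

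**Figure D2:**
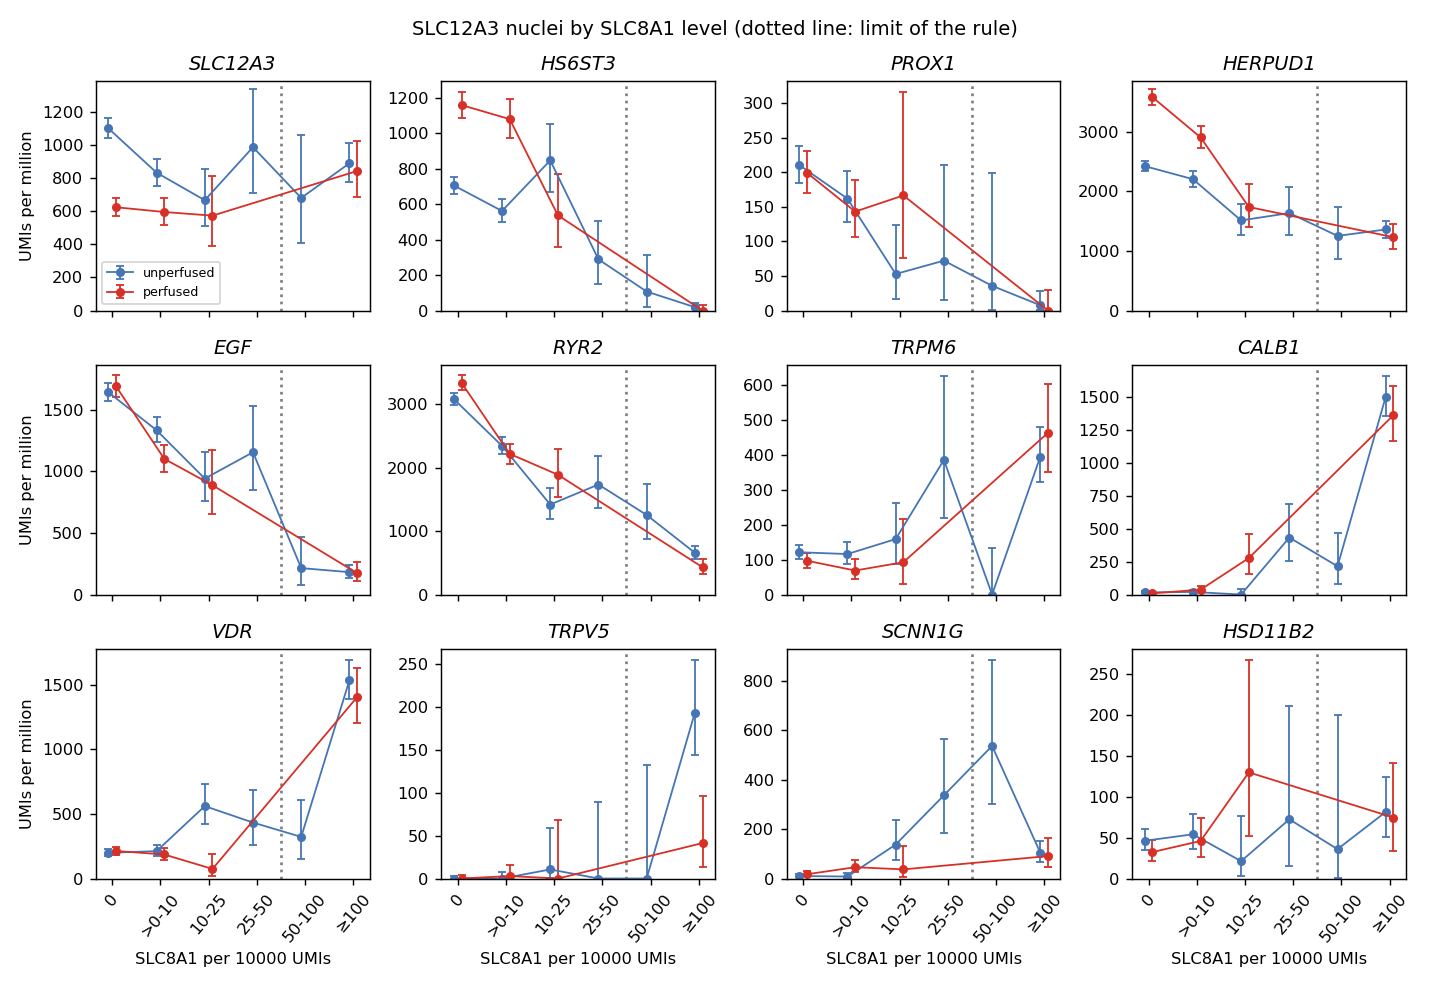
Levels of 12 genes in CPM with exact 95% Poisson intervals, in nuclei with SLC12A3 grouped by SLC8A1 per 10000 UMIs (x axis), in unperfused (blue) and perfused (red) cortex, with the limit of the rule as a dotted line. Groups of 1 nucleus are left out; CALB1 and VDR are highest in the group at 100 or more and EGF, RYR2 and PROX1 in the group without SLC8A1.

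Perfused and unperfused members were then compared gene by gene, each as a log2 ratio with unperfused CPM as the base. Of 7971 genes with at least 50 UMIs in both libraries together, 38 were at least 2-fold higher (0.477% of those genes) and 220 at least 2-fold lower (2.76%) in perfused members. The median log2 ratio of these genes was −0.02 in members and −0.01 in all other nuclei, and 3741 of them (46.9%) were higher by any amount. Most transcript levels of the segment were thus within 2-fold between the 2 libraries. The counts of higher and lower genes in each list below are to be read beside these shares of all genes.

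SLC12A3 (ENSSSCG00000032643) had 1813 unperfused and 783 perfused UMIs, at 1001 and 614 CPM, for a log2 ratio of −0.71 (−0.83 to −0.58). Per nucleus, its median was 9.51 per 10000 UMIs in unperfused and 5.91 in perfused members, and the highest value was 37.1 and 18.8. HS6ST3 (ENSSSCG00000009503), a heparan sulfate 6-sulfotransferase, had 1201 and 1412 UMIs, at 663 and 1106 CPM, for a log2 ratio of 0.74 (0.63 to 0.85). It was found in 68.1% of unperfused and 84.5% of perfused members, with medians of 4.34 and 7.69 per 10000 UMIs. Their levels among members are therefore a description. A set chosen by SALL3, ETV4, RNF180 and PROX1 in place of SLC12A3 and HS6ST3, with the same limits, held 241 unperfused and 118 perfused nuclei, of which 204 and 101 were members. In that set the log2 ratio was −0.71 for SLC12A3 and 0.73 for HS6ST3. This second choice was made after the values of the first had been seen, and RNF180, which it used, was also lower in perfused members.

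SLC12A3 was lower in other sets of nuclei too. All other nuclei include the connecting tubule nuclei, so the values of these sets are not independent. In connecting tubule nuclei SLC12A3 was at 266 and 174 CPM, for a log2 ratio of −0.62 (−0.92 to −0.32), and in all other nuclei at 27.7 and 15.8 CPM, for a log2 ratio of −0.81 (−0.97 to −0.64). Of the SLC12A3 UMIs of the connecting tubule set, 249 of 303 unperfused and 108 of 139 perfused lay in the 42 and 15 nuclei kept out by the SLC8A1 limit. Those nuclei were themselves chosen by SLC12A3, which was at 869 and 797 CPM in them, and they were fewer in the perfused set. HS6ST3 had the opposite sign in all other nuclei, with a log2 ratio of −0.39 (−0.50 to −0.28). Of the other markers, RNF180 had a log2 ratio of −0.61 (−0.77 to −0.44) in members, while the intervals of SALL3 (−0.22) and ETV4 (0.25) included 0.

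HERPUD1 was higher in perfused members, also nucleus by nucleus. It had 4161 unperfused and 4221 perfused UMIs, for a log2 ratio of 0.53 (0.46 to 0.59), and its median per nucleus was 23.6 and 33.2 per 10000 UMIs. In thick limb nuclei its log2 ratio was −0.17 (−0.34 to 0.01) and in connecting tubule nuclei −0.68 (−0.90 to −0.47). In the 42 and 15 nuclei outside the SLC8A1 limit HERPUD1 was at 1350 and 1291 CPM. The log2 ratios of SLC12A3 and its neighbour on the chromosome had opposite signs in members. Both were negative in connecting tubule nuclei and in all other nuclei.

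**Figure D3:**
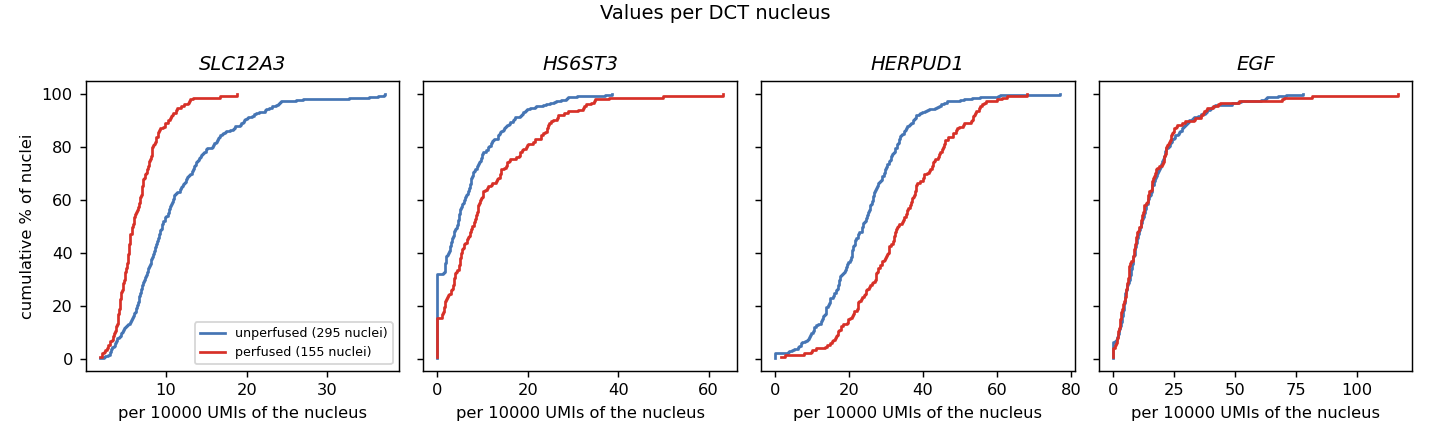
Cumulative percent of distal convoluted tubule nuclei (y axis) against the level of SLC12A3, HS6ST3, HERPUD1 and EGF in each nucleus, per 10000 UMIs (x axis), for 295 unperfused (blue) and 155 perfused members (red). The perfused curve lies to the left for SLC12A3, with medians of 9.51 and 5.91, to the right for HS6ST3 and HERPUD1, and on the unperfused curve for EGF, with medians of 11.4 in both libraries.

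Of 13 genes of NCC and its WNK pathway in the files, all with 50 UMIs or more, 7 were higher and 6 lower in perfused members, with a median log2 ratio of 0.01. The list holds SLC12A3 itself, which is 1 of the 6 lower genes and helped to choose the nuclei. STK39, which encodes SPAK, was at 750 and 744 CPM, for a log2 ratio of −0.01 (−0.13 to 0.11). KLHL3 was at 792 and 764 CPM, for a log2 ratio of −0.05 (−0.17 to 0.07), while in all other nuclei it was at 140 and 80.7 CPM, for a log2 ratio of −0.79. WNK1 had a log2 ratio of −0.21 (−0.34 to −0.09), and NEDD4L, a ubiquitin ligase for sodium transporters, of 0.23 (0.14 to 0.33). None of the list's genes reached 2-fold in either direction, and WNK4 was not analysed here.

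Of the magnesium genes, 3 were higher and 5 lower among the 8 with 50 UMIs or more, with a median log2 ratio of −0.06. TRPM6 had 231 unperfused and 113 perfused UMIs, for a log2 ratio of −0.53 (−0.86 to −0.20). TRPM6 was no marker of the members in these libraries, since all other nuclei held 185 and 156 CPM and proximal tubule nuclei 338 and 315 CPM. EGF and TRPM7 were level, with log2 ratios of −0.02 (−0.10 to 0.07) and 0.00 (−0.07 to 0.07). UMOD had a log2 ratio of 0.33 (0.26 to 0.39), against 0.76 in all other nuclei.

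Calcium genes were split evenly, with 4 higher and 4 lower of 8 and a median log2 ratio of −0.03. SLC8A1, whose level the rule limits, was at 252 and 167 CPM. RYR2 had a log2 ratio of 0.10 (0.04 to 0.16), and TRPV5 had 1 UMI in each library. Among potassium and chloride genes, 5 of 7 were higher, with a median of 0.20. These included KCNQ1, a voltage-gated potassium channel, with a log2 ratio of 0.37 (0.23 to 0.51), and the sodium pump subunit ATP1B1 with 0.20 (0.12 to 0.27). KCNJ1, the ROMK potassium channel, was lower, at 69.0 and 41.5 CPM with a log2 ratio of −0.73 (−1.22 to −0.26), and the basolateral channel KCNJ10 was at 127 and 129 CPM.

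Of 7 aldosterone-sensitive sodium uptake genes, 4 were higher and 3 lower. NR3C2, the mineralocorticoid receptor, was at 1998 and 2260 CPM, for a log2 ratio of 0.18 (0.11 to 0.25). SGK1, the aldosterone-induced and glucocorticoid-induced kinase, fell to 20 from 68 UMIs, for a log2 ratio of −1.26 (−2.06 to −0.52), and was the only gene of the ion transport lists with 50 UMIs that was past 2-fold. With 1000 UMIs per nucleus the sign of SGK1 turned, to 0.50. Of 7 glucocorticoid targets 3 were higher and 4 lower, and FKBP5 and PER1 had log2 ratios of −0.15 and −0.05, with intervals that included 0.

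**Figure D4:**
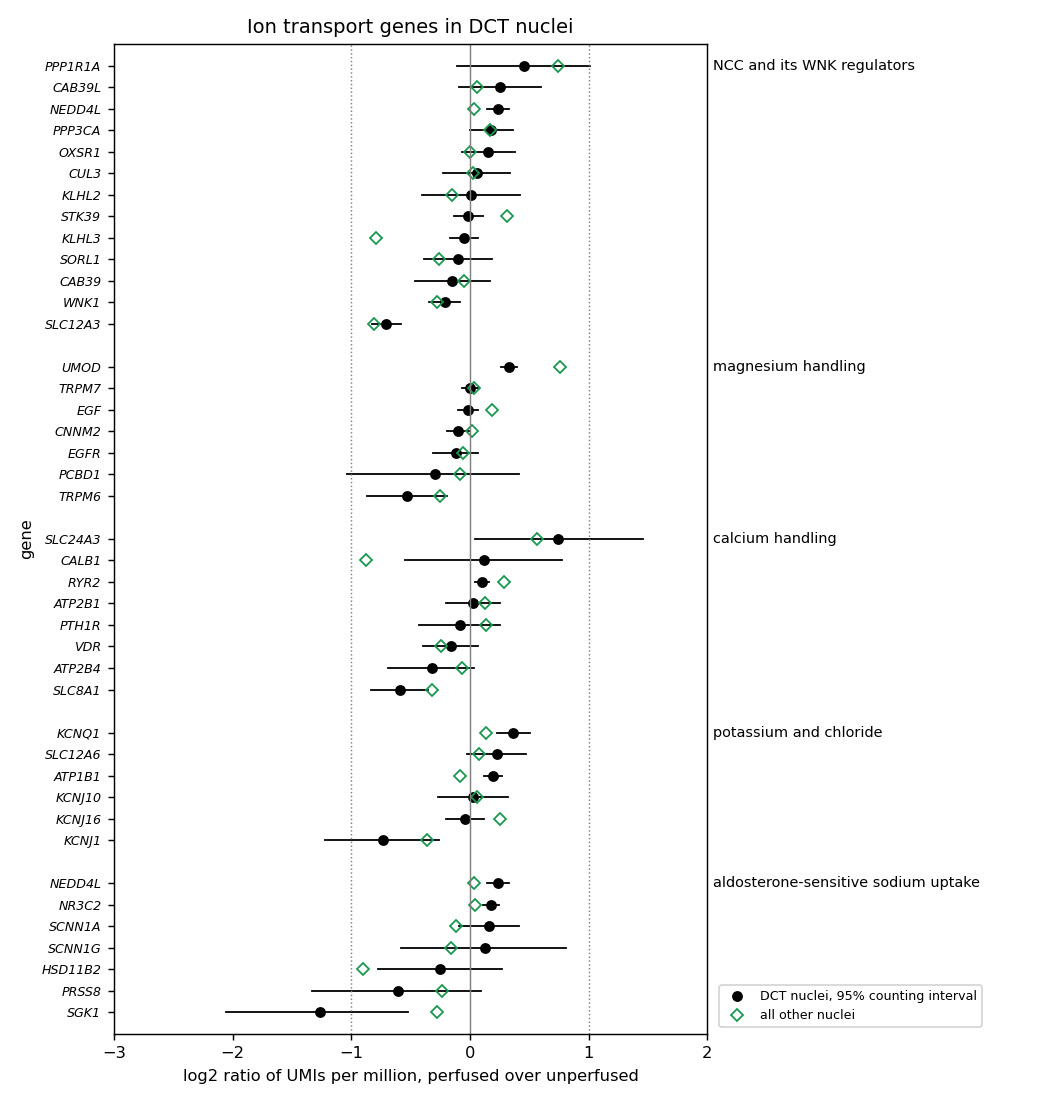
Log2 of perfused CPM over unperfused CPM (x axis) of the ion transport genes (rows) with at least 50 UMIs, in distal convoluted tubule nuclei (black, with 95% counting intervals) and in all other nuclei (green), with dotted lines at 2-fold. SLC12A3, SGK1, KCNJ1 and TRPM6 lie to the left of 0 and most regulators of the cotransporter lie near it.

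Transcription factors of the distal nephron were mostly higher in perfused members. Of the 17 listed factors with 50 UMIs, 15 were higher, with a median log2 ratio of 0.25 against 0.05 in all other nuclei and against 46.9% of all 7971 genes being higher. None was 2-fold higher, and 8 had an interval above 0, as did 766 of all 7971 genes. Such intervals narrow as UMIs increase, and this count and those of the lists below were not matched for level. ESRRG (ENSSSCG00000010814), an orphan nuclear receptor, was at 1891 and 2552 CPM, for a log2 ratio of 0.43 (0.36 to 0.50). MECOM was at 5695 and 6953 CPM, for a log2 ratio of 0.29 (0.25 to 0.33), and ESRRB at 991 and 1189 CPM, a ratio of 0.26 (0.16 to 0.36). PPARGC1A, the coactivator of mitochondrial genes, had 0.22 (0.14 to 0.31). TFAP2B and SALL3 were the 2 lower factors, and their intervals included 0.

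Of 18 heat shock genes with 50 UMIs, 12 were lower and 7 had an interval below 0, beside 4230 lower and 916 with such an interval among all 7971 genes, with a median log2 ratio of −0.21 against −0.10 in all other nuclei. The cochaperone gene DNAJA1 had 111 unperfused and 39 perfused UMIs. DNAJB1, of the same family, had 130 and 48, for a log2 ratio of −0.93 (−1.44 to −0.44). HSPH1, a large heat shock protein of the HSP110 group, had 130 and 44, for a log2 ratio of −1.06 (−1.59 to −0.55). HSP70.2, a pig HSP70 gene singled out after its values were seen, had 321 and 85 UMIs, for a log2 ratio of −1.41 (−1.77 to −1.06), against −1.28 in all other nuclei. Near-identical HSP70 copies share reads, so its level is uncertain. In the set chosen without SLC12A3 and HS6ST3, HSPH1 had a log2 ratio of 0.12.

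Of 16 hypoxia genes 6 were higher and 10 lower, with VEGFA at 105 and 59.6 CPM (log2 ratio −0.82, −1.23 to −0.43) and HIF1A with 127 and 132 UMIs (0.56, 0.20 to 0.92). The unfolded protein response list had 5 of 8 genes higher, and its summed level (2714 and 3676 CPM) was mostly HERPUD1; the chaperone HSP90B1 had a log2 ratio of −0.54 (−0.99 to −0.10). Of 8 tubule injury genes 6 were lower, and TPM1, a tropomyosin, was the highest at 160 and 218 UMIs, for a log2 ratio of 0.95 (0.65 to 1.25). Targets of the actin-regulated factors MRTF and SRF were higher for 11 of 15, and 4 had an interval above 0, as did 766 of all 7971 genes. Their median was 0.23, below the median of 0.68 of the same genes in all other nuclei. Stromal markers in all other nuclei were at 315 and 604 CPM, and their part in that median was not tested. YAP targets were higher for 6 of 8, NRF2 and metal response genes for 4 of 6, NF-kB targets for 2 of 6, and immediate early genes for 2 of the 3 that had 50 UMIs. Beside these counts, 3741 of all 7971 genes were higher (46.9%) and 4230 lower.

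**Figure D5:**
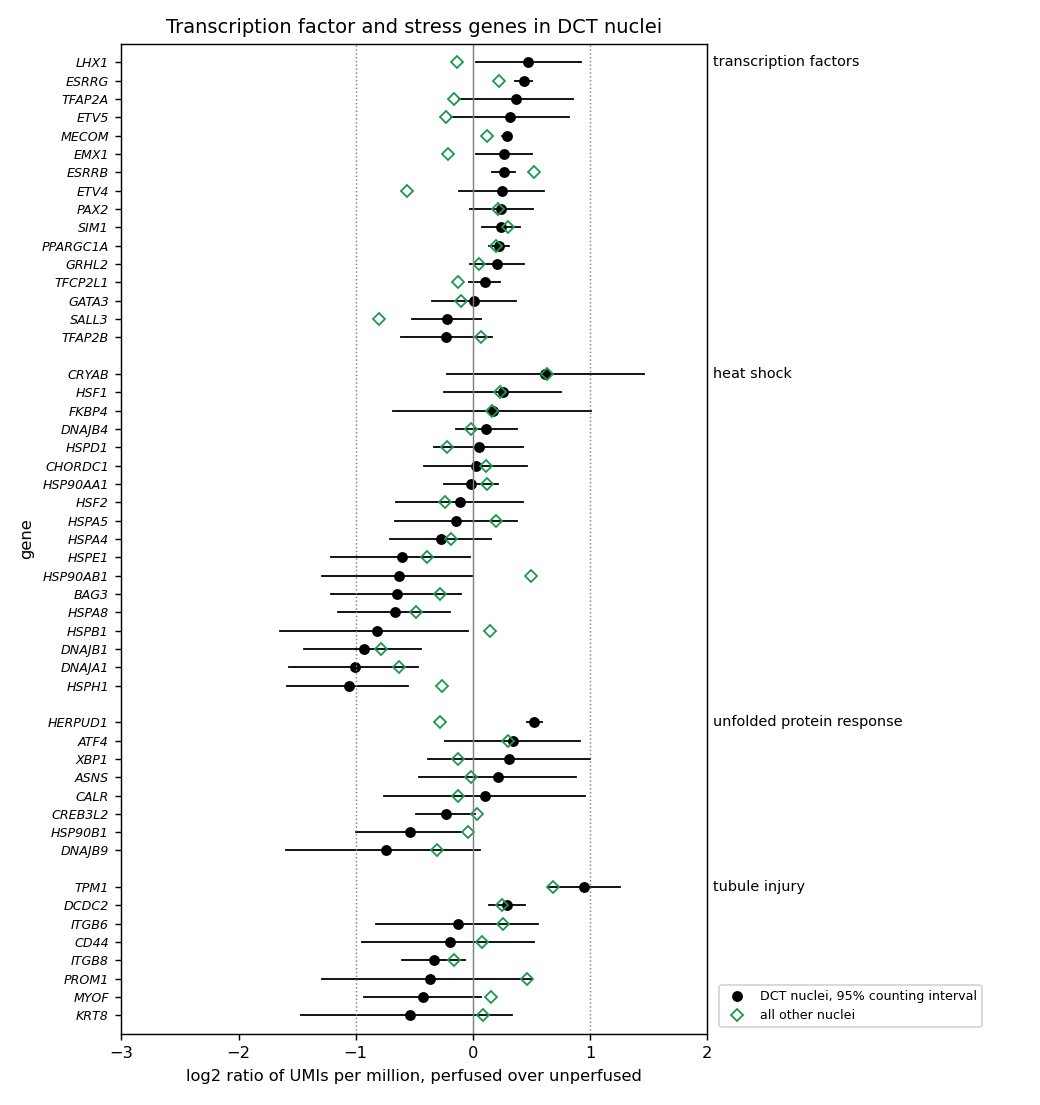
Log2 of perfused CPM over unperfused CPM (x axis) of transcription factor, heat shock, unfolded protein response and tubule injury genes (rows) with at least 50 UMIs, in distal convoluted tubule nuclei (black, with 95% counting intervals) and in all other nuclei (green), with dotted lines at 2-fold. Of the 16 transcription factors plotted 14 lie to the right of 0, and of the 18 heat shock genes 12 lie to the left.

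Mitochondrially encoded and ribosomal protein genes had other medians in members than in all other nuclei, and nuclear-encoded energy genes had nearly the same one. Mitochondrially encoded transcripts were higher for 8 of 10 genes, with a median log2 ratio of 0.66 against 1.54 in all other nuclei. Nuclear-encoded oxidative phosphorylation genes were higher for 14 of 22, with a median of 0.10 against 0.11, in a list that also holds the coactivator PPARGC1A. Ribosomal protein genes were lower for 45 of 58 and 5 had an interval below 0. Among all 7971 genes 4230 were lower and 916 had such an interval. The ribosomal protein genes had a median of −0.19 in members, whereas the same genes had a median of 0.62 in all other nuclei. The mix of cell types in all other nuclei differed between the libraries, and its part in that contrast was not tested.

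Among single genes with a symbol and at least 50 UMIs in a library, SPATA22 (ENSSSCG00000029709), a meiosis gene, had the largest log2 ratio, with 7 unperfused and 64 perfused UMIs and 3.70 (2.57 to 5.07). It was found in 4 and 26 nuclei, and in all other nuclei its log2 ratio was 1.79. Among the other genes of the 15 highest were the helicase gene HELB (38 and 67 UMIs, log2 ratio 1.32), UBE3D (1.28), LOXL2 (1.25) the zinc finger gene ZNF510 (1.17) and the arylsulfatase gene ARSB (106 and 152 UMIs, 1.02). HELB, UBE3D and ARSB were near 0 in all other nuclei, with log2 ratios of 0.05, 0.01 and −0.05.

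Several of the genes that were lowest in perfused members came from few nuclei. PTPRQ, a podocyte gene, had 80 and 2 UMIs, of which 71 were in 1 nucleus. MYH11, a smooth muscle gene, had 54 and 8 UMIs in 3 nuclei of each library. DIAPH3, ATAD2 and EZH2, genes of dividing cells, had 84 and 3, 52 and 9, and 52 and 11 UMIs. Other genes were spread more widely. RN18S, an 18S ribosomal RNA gene, had 590 UMIs in 234 unperfused and 90 in 66 perfused nuclei, for a log2 ratio of −2.21 (−2.54 to −1.89) against −1.16 in all other nuclei. NELL1 had 109 UMIs in 70 and 19 in 14 nuclei, for a log2 ratio of −2.02 (−2.80 to −1.30), and S100A6 had 83 in 65 and 15 in 13, for a log2 ratio of −1.96 (−2.86 to −1.16).

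Markers of podocytes, endothelium, proximal tubule and cycling cells were lower in perfused members when summed. The summed level of 6 podocyte genes was 166 and 65.8 CPM (most abundant gene CLIC5), of 8 endothelial genes 311 and 215 CPM (PECAM1), of 14 proximal tubule genes 898 and 701 CPM (CUBN) and of 5 cycling genes 98.3 and 17.2 CPM (CDK1). Thick limb genes were at 2838 and 3291 CPM, of which UMOD was 2207 and 2770 CPM, and of the 5 with 50 UMIs 1 was higher and 4 lower, with a median log2 ratio of −0.73. Connecting tubule genes were at 394 and 299 CPM (SLC8A1) and principal cell genes at 236 and 271 CPM (GATA3). The rule limits LRP2 and CUBN of the proximal list, SLC12A1 of the thick limb list and SLC8A1 of the connecting tubule list. The sums of those lists are therefore a description. Intercalated cell genes were at 94.4 and 85.4 CPM (SLC26A7), stromal genes at 167 and 176 CPM (FHL2) and immune genes at 87.2 and 83.1 CPM (PTPRC). The defining marker NPHS1 of podocytes had 2 and 1 UMIs, and AQP2 of principal cells had 9 and 34. Leaving out the 31 unperfused and 12 perfused members with 25 or more per 10000 UMIs of podocyte, endothelial, stromal, immune, cycling and intercalated genes moved PTPRQ to −2.36, CHSY3 from −2.55 to −0.55, PLCB4 from −2.10 to −0.93 and CALCRL from −1.72 to −0.99. RN18S (−2.10), S100A6 (−2.02) and NELL1 (−1.81) moved little, as did SLC12A3 (−0.74), HS6ST3 (0.73) and HERPUD1 (0.48). Other alternatives moved some of these genes more. RN18S was at −1.48 in the set chosen without SLC12A3 and HS6ST3, and S100A6 lay between −2.45 and −0.67 over all alternatives. Scrublet, run for this comparison, called 29 unperfused (9.83%) and 16 perfused members (10.3%) doublets, and they were kept. Levels of proximal tubule genes, set against their share of the whole library, put free RNA at 14.9% of unperfused and 12.6% of perfused member UMIs.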

How the data were processed

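Reads were processed by the authors with Cell Ranger 5.0.1 against a pig reference of Ensembl release 103, with intronic reads counted, and UMI counts per gene and barcode were deposited without normalization, before the study's SoupX, mitochondrial and Scrublet steps. Unspliced transcripts therefore add to these counts, and long genes with many introns can gain from them. Symbols were those deposited (16554 of 31908 features), with 811 added from a table of identifiers. UMIs of members were summed per library (numpy 2.4.6, scipy 1.17.1) and compared as CPM. A count of 0 was set to 3 UMIs, and ratios carry conditional binomial intervals, checked on simulated data. No test was run. Scrublet was run as an alternative and no member was removed as a doublet. Thinning left out 3 unperfused and no perfused members.

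Named genes were the markers, the listed genes, the 15 genes with the largest ratio in each direction (50 UMIs in 1 library, interval without 0), the 20 highest over all other nuclei and the 10 most different from each neighbouring segment in each direction (100 CPM). Members and lists were chosen with earlier results of these data known. The closing part gives 13 alternatives chosen before the counts were read and 2 chosen after (scanpy 1.11.5 for Scrublet, edgeR 4.0.16 for TMM, DESeq2 1.42.0 for size factors). A few genes counted in the lists are not reported here by name and were left out of the plots.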

Additional observations from a re-analysis of the deposited data

Results flagged for a closer look

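Named genes are given here whose log2 ratio was at least 0.25 in size in the members and, with the other sign, in all other nuclei, with both intervals clear of 0, and none of these differences was tested. HS6ST3, one of the genes that chose the members, was at 0.74 in members and −0.39 in all other nuclei, and HERPUD1 at 0.53 and −0.28. The kinase PAK5 was at 0.35 and −0.31, TMEM108 at 0.38 and −0.28 (69 of its perfused UMIs were in 1 nucleus), and the zinc finger gene ZNF510 at 1.17 and −0.28. The mitochondrial ATP synthase gene ATP5MC1 was at −0.69 and 0.26. CHSY3 was at −2.55 and 0.53. Its 50 unperfused UMIs in members lay in 13 nuclei, with 12 UMIs in 1 nucleus. Leaving out nuclei with markers of other lineages moved its value in members to −0.55. SLC12A1, which the rule limits, was at −0.90 and 0.72, and 32 of its unperfused UMIs were in 1 nucleus. With SLC12A1 under 5 per 10000 UMIs, its value in members turned to 0.12. Within thick limb nuclei alone its log2 ratio was 0.20 (0.18 to 0.22). Those nuclei were 841 of 7035 in the unperfused and 954 of 5920 in the perfused library. The part of that difference in the value of 0.72 was not tested.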

How the results depend on the processing

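No paired analysis was possible because each condition had 1 library, and for the same reason no replicate could be left out. A stricter minimum of 10 per 10000 UMIs of SLC12A3 and HS6ST3 gave shares of 3.21% (unperfused) and 1.84% (perfused), and choosing nuclei without these genes gave 3.43% and 1.99%. Genes at least 2-fold higher numbered 38 in the report, 78 with the stricter minimum, 82 chosen without these genes, 490 thinned to 1000 UMIs, 93 with free RNA subtracted, 351 with at least 10 UMIs and 982 with no minimum. Genes at least 2-fold lower numbered 220, and 967 thinned, 362 with free RNA subtracted, 1343 with at least 10 UMIs and 2180 with no minimum. Limits of 7% mitochondrial UMIs, SLC8A1 under 20, SLC12A1 under 5 or LRP2 and CUBN under 10 per 10000, and leaving out Scrublet doublets, moved no share beyond its interval and no count by over 1.5 times. Leaving out the richest nucleus of each gene turned no log2 ratio whose interval lay on 1 side of 0. With TMM factors 51 genes were higher and 188 lower, and with DESeq2 size factors 54 and 187. Among lists, the members higher were 1 (stricter minimum) and 6 (chosen without) for glucocorticoid targets, 4 (other-lineage nuclei left out) and 4 (no minimum) for tubule injury, 4 (chosen without) for NCC and its regulators, and 1 (chosen without), 7 (10 UMIs) and 9 (no minimum) for immediate early genes. They were 3 each for potassium and chloride, YAP targets and unfolded protein response when thinned, 10 for YAP targets with 10 UMIs or no minimum, and 8 (unfolded protein response) and 4 (NF-kB targets) with no minimum. The number of transcription factors higher was 11 (thinned) to 17 (no minimum).

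Of 2823 alternative values, 19 turned the sign of a log2 ratio whose interval in the report lay on 1 side of 0. Ratios whose interval included 0, such as those of ETV4, KLHL3 and EGF, also took either sign and are not counted in the 19. Thinned to 1000 UMIs, they were −0.068 for ATP1B1, 0.14 for BAG3, 0.052 for CNNM2, −0.043 for DCDC2, −0.023 for KATNAL2, −0.086 for LHX1 and NUAK2, −1.41 for MAP3K14, 0.23 for NDUFS4, 0.50 for SGK1 and −0.41 for ZNF510. FHL2 was at −0.80 and MYH11 at 3.06 without Scrublet doublets, and FHL2 at −0.068 without other-lineage nuclei. Chosen without SLC12A3 and HS6ST3, FHL2 was at −0.16, HSPH1 at 0.12, RYR2 at −0.023 and SLC8A1 at 0.34. With SLC12A1 under 5 per 10000, SLC12A1 was at 0.12. The cause was not tested. Another 166 values moved beyond the interval in the report, and 2638 did not. Of the 166, thinning gave 89 and choosing without SLC12A3 and HS6ST3 gave 24. Over all alternatives SLC12A3 lay between −0.82 and −0.63, HS6ST3 between 0.71 and 0.98 and HERPUD1 between 0.48 and 0.61. Leaving out other-lineage nuclei and choosing without SLC12A3 and HS6ST3 were added after seeing the data. Depth limits genes under 50 UMIs, where few molecules pass 2-fold.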
